A study of Mus musculus with 6 samples.

Results

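The 10 genes of cellular iron handling described here were followed across 6 RNA sequencing libraries: Tfrc, Fth1, Ftl1, Slc40a1, Slc11a2, Ireb2, Aco1, Slc25a37, Ncoa4 and Steap3. They were taken by gene symbol from the 47606 genes of each deposited table, and all 10 were found once. The set was chosen with values of these libraries known, by replicate number and by guide, so the levels of its genes and their differences are a description and carry no p-value. RNA was sequenced from mouse 32D cells, a myeloid progenitor line grown with interleukin 3 (1 ng/mL). Every library came from cells with dCas9-KRAB, a Cas9 that binds DNA without cutting it, fused to a repressor domain. Lentivirus delivered either the empty vector, written EV, or 1 of the guides sg2 and sg5, followed by a week of puromycin selection. Each of these 3 groups has 2 libraries. By its title the series concerns a CEBPE enhancer, and the comparison stated for the series is knock-down by either guide against EV. Libraries of each group are numbered 1 and 2 in the labels, and no label says what the number stands for or whether the cultures were separate. The second sg5 library is sg5 by its title but sg2 by its source name and genotype, and it was counted as sg5.

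Values are in FPKM, fragments scaled for transcript length and for the depth of the library, so levels of different genes can be set side by side. The implied depth was between 31200000 and 45000000 fragments per library. Cebpe, the gene whose enhancer the title names, measured 42.0 and 100 FPKM in the EV libraries, and the 4 guide libraries spanned 14.4 to 22.7 FPKM. Genes expected of a myeloid line were present, such as Prtn3 at 234 to 372 FPKM, but Kit was listed at 0 in every library. The erythroid globin genes Hbb-bs and Hbb-bt were also at 0, but the globin gene Hba-a1 stood at 2.36 to 18.6 FPKM. Of 9 erythroid markers 4 averaged at least 1 FPKM, with Tal1 the highest at a mean of 64.8 FPKM. The main axis of variation among the libraries followed the replicate number: number 1 and number 2 lay apart on the first principal component, which held 55.8% of the variance. For the iron set, EV and guides are therefore compared within a number or in a fit with the number as a block, with unblocked values beside some of them.

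Cells take up iron by binding transferrin at the transferrin receptor, reduce it in endosomes and pass it to the cytosol. Iron that is not used is stored in ferritin, a shell of heavy and light chains, and leaves the cell through ferroportin. Iron regulatory proteins sense iron and bind a hairpin in mRNAs, the iron responsive element. Binding in the 3' UTR of Tfrc protects that mRNA from decay, and binding in the 5' UTR of ferritin and ferroportin mRNAs blocks their translation.

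The hairpin was searched for in GENCODE M21 transcripts (GRCm38), since its position separates the receptor from the storage and export genes of the set. The pattern was a bulged C, 5 bases and the loop CAGTGN on the transcript's own strand, with the 5 bases before the loop pairing with the 5 after it (G with T allowed) and at least 4 of the next 6 positions paired. It lay in a UTR of 23 of 21901 protein-coding genes (0.105%), among them 4 of the 10 genes of the set. Tfrc held 4 matches in its 3' UTR, and Fth1, Ftl1 and Slc40a1 held 1 each in the 5' UTR. In the sequences, read 5' to 3', the capitals mark the loop:
Fth1, 5' UTR, chr19:9982732-9982760, plus strand: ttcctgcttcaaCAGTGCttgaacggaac
Ftl1, 5' UTR, chr7:45459779-45459807, minus strand: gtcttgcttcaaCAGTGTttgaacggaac
Slc40a1, 5' UTR, chr1:45925465-45925493, minus strand: caacttcagctaCAGTGTtagctaagttt
Tfrc, 3' UTR, chr16:32631219-32631247, plus strand: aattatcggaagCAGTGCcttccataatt
Tfrc, 3' UTR, chr16:32631598-32631626, plus strand: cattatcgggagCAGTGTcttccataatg
Tfrc, 3' UTR, chr16:32631663-32631691, plus strand: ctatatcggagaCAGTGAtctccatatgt
Tfrc, 3' UTR, chr16:32631710-32631738, plus strand: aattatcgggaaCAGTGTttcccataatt
The matches of Fth1 and Ftl1 held the same base at 26 of 29 positions. The other 6 genes of the set had no match to these letters in a UTR.

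The 10 genes ranged from some of the most abundant transcripts of these cells to nearly undetected ones. By mean FPKM over the 6 libraries Ftl1 ranked 3 and Fth1 ranked 60 among 21958 protein-coding genes, at 4368 and 1436 FPKM. Ncoa4 followed at 417 FPKM, then Tfrc at 113, Slc25a37 at 37.0, Slc11a2 at 24.8, Ireb2 at 20.4 and Steap3 at 11.2 FPKM. Aco1 at 0.0799 FPKM and Slc40a1 at 0.00253 FPKM were far below the rest. Within the number 1 libraries the ranges of Slc25a37, Slc11a2 and Ireb2 overlapped, so their order there is not resolved. In the number 2 libraries these 3 did not overlap, and Slc25a37 stood above Tfrc.

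**Figure D1:**
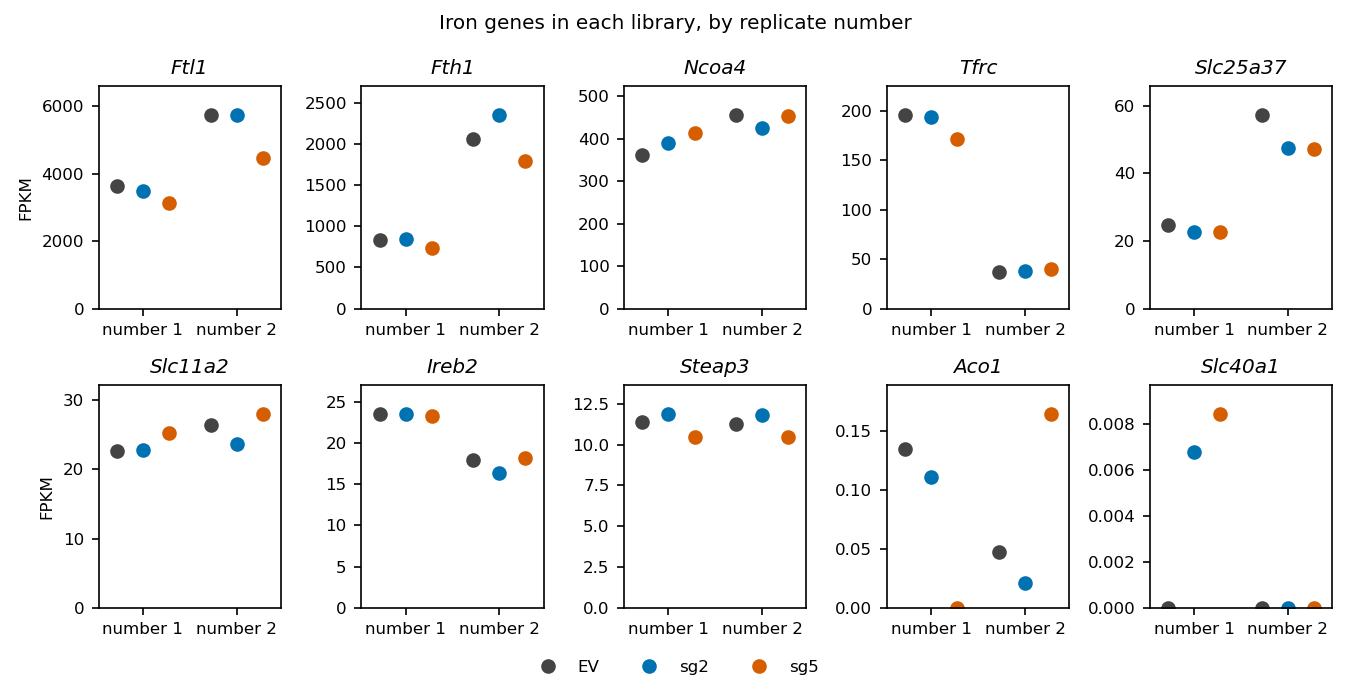
FPKM of each gene of the iron set (y axis, from 0) in the 6 libraries, grouped by replicate number on the x axis, with 1 point per library coloured by group. Tfrc lies between 172 and 196 FPKM in number 1 and between 36.7 and 39.9 FPKM in number 2, while Fth1, Ftl1 and Slc25a37 are higher in number 2 and Steap3 is alike in both.

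Tfrc (ENSMUSG00000022797, GRCm38 chromosome 16, 32608920 to 32632794, plus strand) encodes the transferrin receptor. It measured 196 FPKM in EV, 194 in sg2 and 172 in sg5 of number 1, and 36.7, 37.8 and 39.9 FPKM in the same groups of number 2. All 3 number 1 libraries were high and all 3 number 2 libraries low, without overlap. The number 1 mean of 187 ± 13.5 FPKM (SD, n = 3) was 4.91 times the number 2 mean of 38.1 ± 1.62 FPKM (SD, n = 3). The ratio of number 1 to number 2 was 5.35 in EV, 5.13 in sg2 and 4.31 in sg5. As bulk RNA was measured, fewer cells with the transcript and less RNA per cell cannot be told apart here.

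The partners of the receptor in uptake that belong to the set, Steap3 and Slc11a2, did not share that pattern. Steap3 (chromosome 1, 120190757 to 120272705, minus strand), the endosomal reductase that readies iron for transport, measured 11.4 FPKM in number 1 and 11.3 in number 2 for EV, 11.8 in both for sg2, and 10.4 and 10.5 for sg5. It was close to equal between numbers within each group, with the sg5 pair the lowest. Slc11a2 (chromosome 15, 100387898 to 100425072, minus strand), which encodes the DMT1 transporter that moves iron out of the endosome, measured 22.6 FPKM in number 1 and 26.5 in number 2 for EV, 22.8 and 23.6 for sg2, and 25.3 and 28.0 for sg5. Its number 2 value was the higher one in each of the 3 groups, but the 2 sets of libraries overlapped.

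Ferritin transcripts were higher in number 2. Fth1 (ENSMUSG00000024661, chromosome 19, 9980598 to 9985098, plus strand), the heavy chain that oxidises iron for storage, measured 833, 845 and 739 FPKM in EV, sg2 and sg5 of number 1, and 2059, 2351 and 1789 FPKM in number 2. Every number 2 library was above every number 1 library, by 2.47 times in EV, 2.78 times in sg2 and 2.42 times in sg5. Ftl1 (ENSMUSG00000050708, chromosome 7, 45457944 to 45459884, minus strand), the light chain, measured 3626, 3496 and 3141 FPKM in number 1 and 5734, 5744 and 4468 FPKM in number 2. Its ratio of number 2 to number 1 was smaller, at 1.58 in EV, 1.64 in sg2 and 1.42 in sg5, again without overlap. The light chain transcript stood at 4.25 ± 0.11 times the heavy chain transcript in number 1 and 2.58 ± 0.18 times in number 2 (SD, n = 3 each). Ferritin genes have processed copies, and 12 rows named as ferritin copies or relatives reached at most 0.445 FPKM. Reads shared with copies that carry other names were not looked for.

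Ncoa4 (chromosome 14, 32159865 to 32179855, plus strand) encodes the receptor that delivers ferritin to lysosomes for breakdown. It measured 363, 389 and 414 FPKM in EV, sg2 and sg5 of number 1 and 456, 426 and 453 FPKM in number 2. The number 2 libraries were higher without overlap, by a smaller margin than for the ferritins. Slc40a1 (chromosome 1, 45908068 to 45926523, minus strand), ferroportin and the only known iron exporter, was listed at 0 in 4 libraries. In sg2 and sg5 of number 1 it stood at 0.00677 and 0.00843 FPKM, which equals 1.00 and 0.98 implied fragments. A count of 0 allows up to 3 fragments, between 0.0179 and 0.0258 FPKM for this gene, so no fold between groups was computed and the transcript was not detectable beyond single fragments at this depth.

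Slc25a37 (chromosome 14, 69241848 to 69285112, minus strand) encodes mitoferrin 1, which carries iron into mitochondria for heme and iron-sulfur clusters. It measured 24.8, 22.7 and 22.6 FPKM in EV, sg2 and sg5 of number 1 and 57.2, 47.6 and 47.2 FPKM in number 2. The number 2 libraries were higher without overlap, by 2.31 times in EV, 2.10 in sg2 and 2.08 in sg5. Within each number the EV library was the highest.

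The 2 sensors were unequal in level. Ireb2 (chromosome 9, 54863789 to 54912530, plus strand), iron regulatory protein 2, measured 23.5, 23.4 and 23.3 FPKM in EV, sg2 and sg5 of number 1 and 18.0, 16.4 and 18.1 FPKM in number 2. The number 1 libraries were higher, by 1.34 times on the means and without overlap. Aco1 (chromosome 4, 40143081 to 40198338, plus strand), iron regulatory protein 1 and cytosolic aconitase, measured 0.135, 0.111 and 0 FPKM in number 1 and 0.0471, 0.0216 and 0.164 FPKM in number 2. That is at most 23.1 implied fragments in a library, taking its longest transcript, with no order by group or number. Aco1 and Slc40a1 fell below the mean of 1 FPKM required for the fit across genes, which left 8 of the 10.

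Transferrin receptor and ferritin transcripts thus differed in opposite directions between the 2 sets of libraries. Fth1 and Ftl1 together were 22.7 times Tfrc in EV, 22.4 times in sg2 and 22.6 times in sg5 of number 1. In number 2 they were 213 times Tfrc in EV, 214 times in sg2 and 157 times in sg5. The log2 ratio of Tfrc to summed ferritin, with 1 FPKM added to each, was -4.49 ± 0.012 in number 1 and -7.55 ± 0.25 in number 2 (SD, n = 3 each). The 3 number 1 libraries were close to equal whatever the vector, and sg5 was the least far apart of the number 2 libraries.

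**Figure D2:**
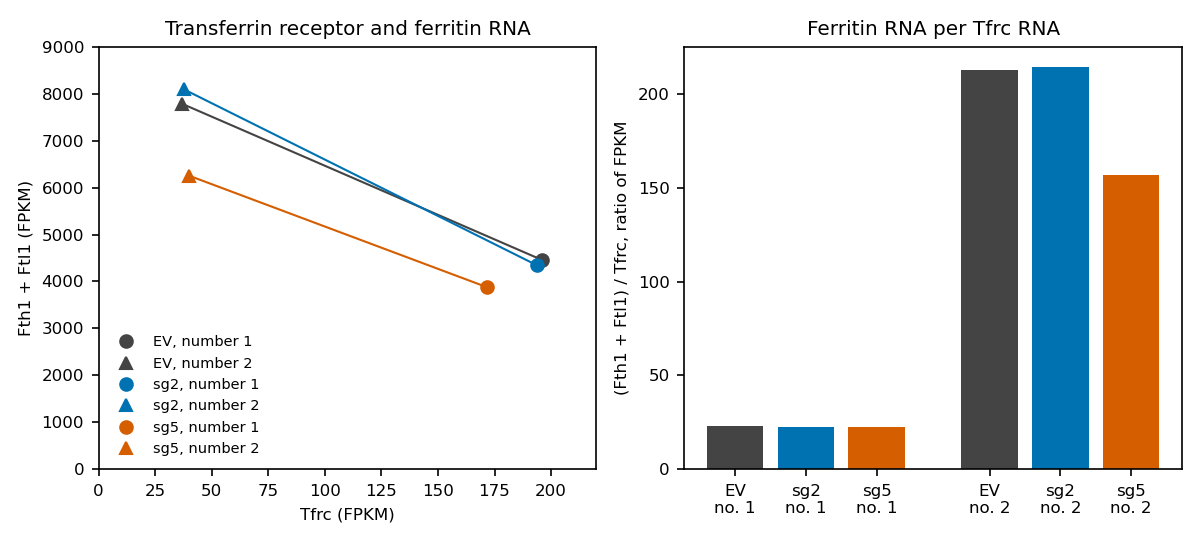
Left, Tfrc FPKM (x axis) against summed Fth1 and Ftl1 FPKM (y axis), 1 symbol per library, with a line joining the number 1 (circle) and number 2 (triangle) libraries of a group. Right, bars from 0 give the ratio of summed ferritin FPKM to Tfrc FPKM in each library, between 22.4 and 22.7 in number 1 and between 157 and 214 in number 2.

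Differences between numbers were then taken on the log2(FPKM + 1) scale, which understates changes of low genes, from a limma fit over the 12929 genes that averaged 1 FPKM or more. Number 2 minus number 1 was -2.27 (SE 0.08) for Tfrc and -0.40 (SE 0.07) for Ireb2. It was 1.35 (SE 0.12) for Fth1, 1.08 (SE 0.06) for Slc25a37, 0.63 (SE 0.11) for Ftl1 and 0.20 (SE 0.07) for Ncoa4. It was 0.14 (SE 0.09) for Slc11a2 and -0.0036 (SE 0.08) for Steap3. For 6 of the 8 tested genes the 2 sets of libraries did not overlap, beside 61.1% of all tested genes. Of these 6, 4 were higher in number 2, beside 27% of all, and 2 lower, beside 34.1%. An adjusted limma p under 0.05 was reached by 5 of the 8, beside 49.3% of all tested genes. It was reached by 6 with scaling by median ratios, where Ncoa4 was added (49% of all), and by 7 with scaling over genes of at least 200 nt, where Slc11a2 was added as well (49.7% of all). Without EV replicate 1 or EV replicate 2 Ftl1 lost the call, which left 4 (32.6% and 32.4% of all). Without a filter on low values, with all 10 genes tested, Ftl1 lost it too, with 4 called (21.6% of all). The rule for the set used this contrast, so nothing is read from these counts. In size, 29 of 12929 genes (0.224%) differed as far downward as Tfrc and 307 (2.37%) as far upward as Fth1, given as a position only.

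The scale of the libraries bears on these values. Genes under 200 nt held between 6.77% and 9.67% of summed FPKM in number 1 and between 15.4% and 21.5% in number 2. With libraries scaled over genes of at least 200 nt, the median difference of all genes moved from -0.04 to 0.12, and the called genes from 2780 higher and 3599 lower to 4154 higher and 2277 lower. With scaling by median ratios the median was 0.06, with 3596 called higher and 2735 lower. Tfrc was then at -2.08 and -2.15, Ireb2 at -0.22 and -0.29, Fth1 at 1.54 and 1.47, Ftl1 at 0.82 and 0.75, and Slc25a37 at 1.26 and 1.20. The directions of these 5 genes were the same under all 3 scalings, and Steap3 turned to 0.17 and 0.11.

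Other features of the libraries moved with the number too. The summed FPKM of 10 macrophage markers was between 85.9 and 106 in number 1 and between 152 and 169 in number 2, with Adgre1, Cd68 and Csf1r above a mean of 1 FPKM and Marco and C1qa at 0 in all libraries. For 9 mast cell and basophil markers the sums overlapped, at 1554 to 3164 FPKM in number 1 and 3090 to 3638 FPKM in number 2, with Fcer1a the most abundant. Single markers of that list did separate: Prss34 averaged 1.24 FPKM in number 1 and 49.7 FPKM in number 2, and Cpa3 127 and 259 FPKM. The others above a mean of 1 FPKM overlapped and went both ways. Fcer1a, Gata2 and Hdc averaged higher in number 2, while Ms4a2 (7.56 and 6.28 FPKM) and Mcpt8 (2.30 and 2.10 FPKM) averaged lower. The sums of 12 progenitor markers overlapped, at 993 to 1322 and 1212 to 1277 FPKM, with Kit at 0, but its members differed in opposite directions. Mpo averaged 105 FPKM in number 1 and 13.4 FPKM in number 2 and Csf2rb 166 and 87.2 FPKM, while Cebpa averaged 48.9 and 187 FPKM and Myb 223 and 317 FPKM, each without overlap. The sums of 9 erythroid markers overlapped, at 82.5 to 93.4 and 67.6 to 102 FPKM, with Tal1 the most abundant and Hbb-bs, Hbb-bt and Slc4a1 at 0 in all libraries. Of these, Klf1 averaged 7.38 FPKM in number 1 and 3.14 FPKM in number 2 and Hba-a1 3.69 and 11.8 FPKM, both without overlap. These single markers were picked after their values were seen. The sums of late neutrophil markers overlapped, at 160 to 454 and 142 to 690 FPKM. Lymphoid markers summed to between 21.5 and 42.5 FPKM and between 49.5 and 116 FPKM, with Cd3e at 0 in all libraries and Nkg7, which other leukocytes also express, as the most abundant. The part of these in the differences of the iron genes was not tested.

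**Figure D3:**
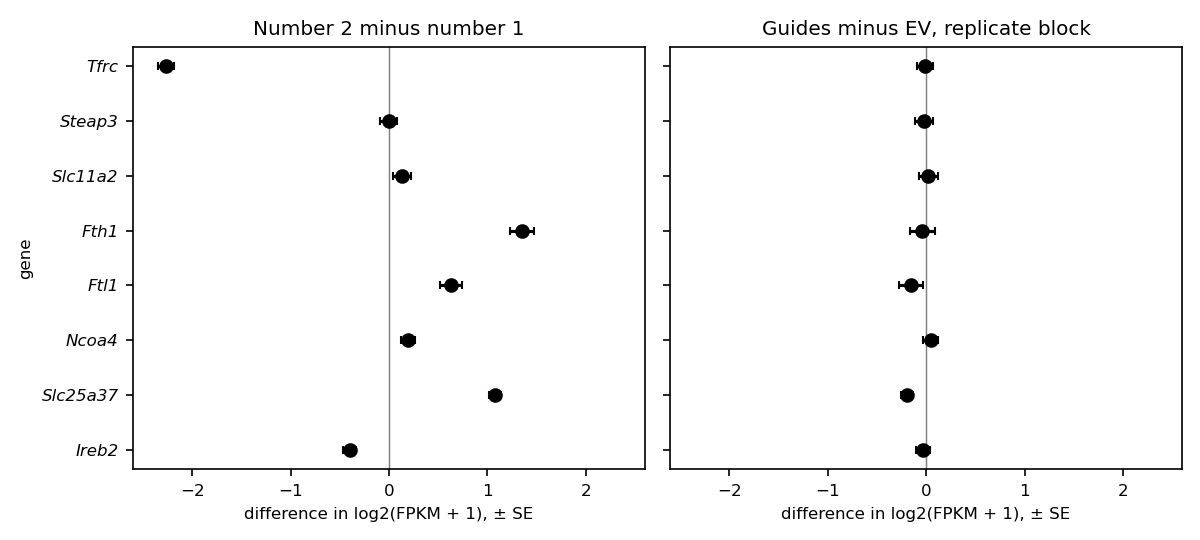
Difference in log2(FPKM + 1) with its SE (x axis) for the 8 genes of the iron set that entered the limma fit (y axis). Left, number 2 minus number 1, from -2.27 for Tfrc to 1.35 for Fth1. Right, guides minus EV with the replicate number as a block, all between -0.20 and 0.05.

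Guides and EV differed far less in these genes than the numbers did. Guide minus EV, with the replicate number as a block, was -0.01 (SE 0.08) for Tfrc, -0.04 (SE 0.13) for Fth1 and -0.15 (SE 0.12) for Ftl1. It was 0.02 (SE 0.10) for Slc11a2, -0.03 (SE 0.07) for Ireb2, 0.05 (SE 0.08) for Ncoa4 and -0.02 (SE 0.09) for Steap3. Without the block the differences were equal and the SE larger, at 0.98 for Tfrc and 0.60 for Fth1. In none of the 8 did guide and EV libraries separate, beside 5.1% of all tested genes (2.54% with guides higher and 2.56% lower). With limma 0 of the 8 passed, beside 0% of all tested genes (169 at an unadjusted p under 0.05) and 0.0387% with the block. The rule for the set used the guides as well, so nothing is read from the counts of the 8 here. The 10 late neutrophil markers, none at 0 in all libraries, summed in number 1 to 454 FPKM for EV, 160 for sg2 and 196 for sg5, and in number 2 to 690, 142 and 149 FPKM, and their part in these small differences was not tested.

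Slc25a37 was the gene of the set furthest from EV with guides. Against the same-numbered EV library it stood at 91.6% and 83.2% with sg2 and at 91.3% and 82.4% with sg5, lower in 4 of 4. The log2 difference was -0.20, with an SE of 0.06 with the block and 0.47 without it. With the block it lay between -0.27 and -0.12 whichever library was left out. Without the block it was -0.78 without EV replicate 1 and 0.39 without EV replicate 2.

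By guide, ferritin values were lower with sg5 than with sg2. Fth1 stood at 102% and 114% of the same-numbered EV library with sg2 and at 88.7% and 86.9% with sg5. Ftl1 stood at 96.4% and 100.2% with sg2 and at 86.6% and 77.9% with sg5. The blocked log2 difference of sg5 from sg2 was -0.29 (SE 0.08) for Fth1 and -0.26 (SE 0.09) for Ftl1, lower in both numbers. Tfrc was at 98.9% and 103% of EV with sg2 and at 87.5% and 109% with sg5, on both sides of EV. Steap3 was at 104% and 105% with sg2 and at 91.7% and 92.8% with sg5. The number 2 value of sg5 comes from the library whose labels conflict. Within number 1, where they do not, Fth1, Ftl1 and Steap3 were also lower with sg5 than with sg2. With limma 0 of the 8 passed for sg2 against EV, sg5 against EV or sg5 against sg2, beside 0.00773%, 0% and 0% of all tested genes (150, 176 and 111 genes at an unadjusted p under 0.05). With the block the first 2 shares were 0.0232% and 0.0155%, again without a gene of the set. As the set was chosen with values by guide known, these counts of the 8 are a description too.

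Genes around the set in the pathway were read from lists, whose genes are not in the set. Of 16 partners in the transferrin cycle and iron import, 8 were tested between numbers. Limma called 2 higher in number 2 and 1 lower, beside 21.5% and 27.8% of all tested genes. The gene called lower was Snx3, a sorting nexin of receptor recycling (-0.34, SE 0.06), which was no longer called with scaling over genes of at least 200 nt. The 2 higher ones were Ltf, the gene of lactoferrin, an iron-binding granule protein, and Tfr2, the gene of a second transferrin receptor that senses iron-loaded transferrin. Snx3 and Tfr2 were chosen for naming after their values were seen. With scaling by median ratios 3 of the 8 were called higher and 1 lower (27.8% and 21.2% of all). With scaling over genes of at least 200 nt it was 4 higher and 0 lower (32.1% and 17.6% of all). Tfr2 measured 35.2, 39.5 and 35.7 FPKM in EV, sg2 and sg5 of number 1 and 56.7, 60.6 and 41.1 FPKM in number 2, opposite in order to Tfrc. Its difference was 0.49 (SE 0.16, limma adjusted p = 0.0465), which lost the call without any 1 of 5 libraries (highest adjusted p 0.208) and kept it without sg5 replicate 2 (0.00716).

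Of 15 genes of iron export, chaperones and sensor turnover, 11 were tested between numbers. Limma called 2 higher and 5 lower, beside 21.5% and 27.8% of all tested genes. The 2 higher ones, named after their values were seen, were Fbxl5 and Slc25a28. Fbxl5, the iron-binding ligase subunit that marks iron regulatory proteins for breakdown, measured 5.98, 7.04 and 6.84 FPKM in number 1 and 12.6, 12.9 and 13.0 FPKM in number 2. All number 2 libraries were above all number 1 libraries, by 0.86 (SE 0.07) on the log2 scale (limma adjusted p = 0.000884). Slc25a28, mitoferrin 2, measured 20.3, 18.2 and 19.5 FPKM in number 1 and 32.5, 37.2 and 33.1 FPKM in number 2, a difference of 0.79 (SE 0.08, limma adjusted p = 0.00142). It was thus higher in number 2 beside its relative Slc25a37. Both calls held without any 1 library and under each scaling. The lower ones, also outside the rule, included Cul1 and Skp1a, subunits of the ligase to which Fbxl5 belongs (-0.79 and -0.46), the iron chaperone gene Pcbp1 (-0.72) and Bola2 (-0.23). Bola2 lost the call under both other scalings and without any 1 of 5 libraries (highest adjusted limma p 0.157), and Cul1, Skp1a and Pcbp1 kept it.

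Of 17 tested genes of mitochondrial iron-sulfur cluster assembly 9 were called lower and 3 higher, beside 27.8% and 21.5% of all tested genes. Their median difference was -0.22 beside -0.04 for all genes. With scaling over genes of at least 200 nt 7 were lower and 4 higher (17.6% and 32.1% of all), with a median of -0.04 beside 0.12. Iscu, the scaffold on which clusters form, was among the higher ones, at 62.2, 63.8 and 61.2 FPKM in number 1 and 95.5, 112 and 103 FPKM in number 2 (0.72, SE 0.07, limma adjusted p = 0.00116). The other 2 called higher were Isca2 (0.65) and Hscb (0.44), which act in later steps of assembly. All 3 were named after their values were seen. Their calls held under each scaling and without any 1 library, except that of Hscb without EV replicate 1 or EV replicate 2 (highest adjusted limma p 0.0766). Of 9 cytosolic assembly genes 4 were lower and 1 higher (median -0.14), but 1 lower and 2 higher with scaling over genes of at least 200 nt (median 0.05). The lower ones were Fam96a (-0.69), Nubp1 (-0.43), Ciao1 (-0.38) and Nubp2 (-0.30), and the higher one Ciapin1 (0.27), named after their values were seen. Without EV replicate 1 or EV replicate 2 only Fam96a of these 5 was still called, and without sg2 replicate 1 Nubp1 and Nubp2 also lost the call (highest adjusted p over the 4 that lost it 0.105).

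Of 17 genes of heme synthesis, breakdown and transport 14 were tested, with 5 higher and 5 lower in number 2 and a median of -0.04 (6 and 3, median 0.14, with scaling over genes of at least 200 nt). Among the higher were Ppox, a late enzyme of heme synthesis, at 36.1, 34.6 and 36.7 FPKM in number 1 against 76.9, 84.9 and 76.4 FPKM in number 2, and Blvrb, a biliverdin reductase, at 34.7, 43.1 and 48.6 against 97.2, 107 and 80.5 FPKM. The other 3 higher ones were the heme transporter gene Slc48a1 (0.57), Alad (0.35) and Alas1 (0.26), the last of them called no longer without any 1 of 5 libraries (highest adjusted limma p 0.174). The 5 lower ones were Blvra, the other biliverdin reductase (-0.92), Hmox2, a heme oxygenase (-0.65), Fech, which inserts iron into heme (-0.54), Cpox (-0.29) and Uros (-0.28). Cpox and Uros lost the call under both other scalings and without any 1 of 5 libraries (highest adjusted p 0.159), and the other 3 kept it. Apart from Alas1, these heme genes were named after their values were seen. Of 6 other mRNAs known to carry an iron responsive element 2 were tested, and both were lower in number 2. Cdc14a, a phosphatase, measured 10.3, 11.5 and 9.52 FPKM in number 1 against 8.23, 7.64 and 6.92 FPKM in number 2. Its call was lost with scaling over genes of at least 200 nt and without any 1 of 4 libraries (highest adjusted limma p 0.0667). Over all tested genes 21.5% were called higher and 27.8% lower.

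**Figure D4:**
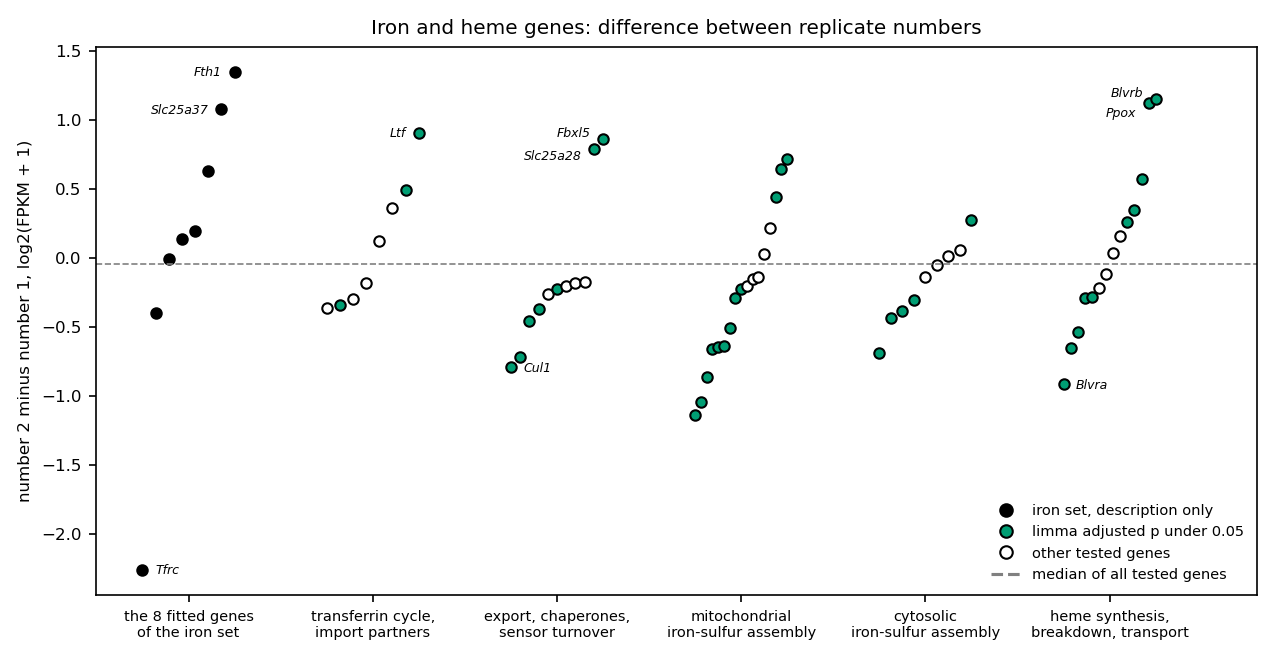
Number 2 minus number 1 in log2(FPKM + 1) (y axis) for each tested gene of the iron set and of 5 lists of related genes (x axis), 1 point per gene. Black points are the iron set, filled green points passed limma at an adjusted p under 0.05, and the dashed line is the median of all tested genes at -0.04. Tfrc lies lowest of the points shown, and Fth1 highest.

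Between guides and EV limma called 0 genes of these lists without the block, and with it Ltf and Alas1 fell. Alas1, the first enzyme of heme synthesis, measured 117 and 160 FPKM in EV, 46.9 and 54.7 with sg2, and 50.9 and 54.8 with sg5. Its difference was -1.38 (SE 0.09 with the block, limma adjusted p = 0.0310, and 0.256 without it), lower in 4 of 4 guide libraries. Ltf measured 7.67 and 13.9 FPKM in the EV libraries, against 0.718 to 2.70 FPKM with guides (-2.16, SE 0.13 with the block, limma adjusted p = 0.0310, and 1.00 without it). Ltf is also one of the late neutrophil markers, whose sums are given above. Both calls were lost when any 1 library was left out, with blocked adjusted p between 0.0621 and 0.207. Alas1 was thus lower with guides by 1.38 on the log2 scale, while the iron genes of the set differed by 0.20 or less.

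The genes of smallest p without the block in the remaining lists did not pass in either fit. Bola2, an iron-sulfur chaperone, measured 72.6 and 57.0 FPKM in the EV libraries, against 49.96 to 58.3 FPKM with guides (-0.27, SE 0.15, limma adjusted p = 1.00, and 0.679 with the block). Its SE was 0.07 with the block. Herc2, a ubiquitin ligase gene, had a difference of -0.16 (SE 0.19, and 0.15 with the block). Among the assembly genes, with blocked SEs, Nubpl had 0.21 (SE 0.18), Fdx1l -0.25 (SE 0.09), Narfl -0.20 (SE 0.09) and Nubp2 -0.17 (SE 0.08). Cdc14a had -0.07 (SE 0.11 with the block). With the block the adjusted limma p of these 6 lay between 0.813 and 0.941.

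Among 8061 other genes that averaged 10 FPKM or more, the 5 whose values followed Tfrc most closely by Pearson correlation over the 6 libraries were Ndufa9, Npm1, Chmp7, Hdlbp and Polr2d. The correlations of these 5 are not given, because the libraries fall into 2 separate sets by number. A correlation of at least 0.95 with Tfrc was reached by 1612 of the 8061 genes, and 788 reached that size with a negative sign. The 5 are thus the top of a large group and not a likeness particular to Tfrc. Npm1, the gene of nucleophosmin, measured 1107, 1109 and 951 FPKM in EV, sg2 and sg5 of number 1 and 266, 264 and 287 FPKM in number 2. Ndufa9, a subunit gene of respiratory complex I, measured 77.6, 78.4 and 73.7 FPKM against 34.1, 34.2 and 36.2 FPKM. In both, as in Tfrc, sg5 was the lowest of number 1 and the highest of number 2. The 5 genes were picked on these same values, so nothing is read from this shared order. Hdlbp had that order too, while Chmp7 and Polr2d did not. Polr2d measured 37.5, 37.6 and 37.2 FPKM in EV, sg2 and sg5 of number 2.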

How the data were processed

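The authors deposited 1 table of FPKM values per library. Per the submitters' processing notes the tools were kallisto 0.43.0 and DESeq2 and the builds GRCm38 and mm10, without a role for each, and the step that gave FPKM is not given in the sources used here. Positions and UTRs come from GENCODE M21 (GRCm38). Depth was implied from low FPKM values of single-transcript genes over 4000 nt, with an assumed fragment of 200 nt. It was set where the largest share of these values was whole within 0.15 fragments. That share, between 92.6% and 98.1%, is thus no separate check of the depth. Counting limits cover counting error only.

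Genes that averaged 1 FPKM or more were tested as log2(FPKM + 1) in R 4.3.3 (limma 3.58.1). The prior variance followed an intensity trend, and p-values were adjusted by Benjamini-Hochberg, with a threshold of 0.05. The code was tested on simulated data. Guides (4 libraries) were set against EV (2) without a block, each guide in a fit with 3 groups, and number 2 against number 1 with EV or guide as a term. Differences of number 2 from number 1 correlated across genes at 0.611, 0.591 and 0.583 between the groups, so the number was treated as pairing, and blocked values are given. The p-values here reflect only how these libraries vary, and that variation may be technical.

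The genes of the set and the lists were chosen with earlier results of these data known. Named genes were the set, Cebpe, list genes past the threshold between guides and EV or else the 2 of smallest p, and the 5 genes most like Tfrc. Slc40a1 was too low for a like search. Flvcr1 and Flvcr2 were matched through older symbols. Tables and figures were made with Python 3.11.15, numpy 2.4.6, pandas 2.3.3 and matplotlib 3.10.9. Some genes of the lists are counted but not reported here by name.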

Additional observations from a re-analysis of the deposited data

Results flagged for a closer look

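For some genes of the iron set the side of the same-numbered EV library on which guide libraries lay changed, either between numbers or between guides. None of these differences was tested. For Tfrc both guides were below EV in number 1, with a mean log2 difference of -0.10, and above it in number 2, at 0.0794. For Ncoa4, the ferritin receptor of lysosomal breakdown, both guides were above EV in number 1 (0.15) and below it in number 2 (-0.0532). For Fth1 sg2 was above EV in both numbers, with a mean of 0.11, and sg5 below it in both, at -0.19. For Steap3 sg2 was above EV in both numbers (0.0582) and sg5 below it in both (-0.11). The sg5 values of number 2 rest on the library with conflicting labels.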

How the results depend on the processing

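Between guides and EV limma called 0 of 12929 genes, 5 with the replicate block, 6 without a filter on low values, 4 without the intensity trend, and between 0 and 1 without any 1 library (between 0 and 2 with the block as well, a choice made after seeing the data). For sg2 against EV it called 1 gene, 3 with the replicate block, 0 without a filter, 0 at a mean of at least 5 FPKM, 0 with the second sg5 library counted as sg2, and 0 without any 1 library. For sg5 against EV it called 0, 2 with the replicate block and 18 without a filter. For sg5 against sg2 it called 0, and 23 without a filter. None of these calls was a gene of the iron set. Between numbers it called 6379 genes, and between 4195 and 5703 without any 1 library. Of 106 values of the set between numbers, 21 differed from the reported one by at least its SD over the 3 groups. Of the 106, 6 had another sign than the reported one, all of Steap3. Between guides and EV 28 of 154 did, from all 8 genes: 7 without the block and without 1 EV library, 9 without the block and without 1 guide library, 11 with the block and without 1 library, and 1 with scaling over genes of at least 200 nt. With the block those 11 lay between -0.0532 and 0.0794. Tfrc was 1.18 without EV replicate 1 and -1.21 without EV replicate 2, and 0.08 and -0.10 with the block. The ratio of Tfrc to ferritin moved by less than its spread with a pseudocount of 0.1 FPKM or with ferritin copies added. With 2 libraries per vector, small differences of the set are not resolved.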
